A study of Mus musculus with 5 samples.

Results

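Gene expression at day 8 of reprogramming was compared with that at day 4 in mouse embryonic fibroblasts, by RNA sequencing of 5 libraries. The comparison took every library of the series, 5 of 5, grouped by the day in its label: 3 at day 8 and 2 at day 4. All 5 came from fibroblasts of the ICR strain that were being turned into pluripotent cells. The day-8 libraries were an untreated control, cells treated with mastoparan (a peptide of wasp venom) and cells treated with paraquat (a redox-cycling herbicide). The day-4 libraries were cells expressing Flag, the control, and cells expressing CypD (cyclophilin D, a mitochondrial regulator encoded by Ppif). The genotype label also names CypD expression for the 3 day-8 libraries, while the description of the design does not. Neither the introduced factors nor the doses could be taken from the labels. Each condition had 1 library, and the treatments differed within each day, so the spread in the tests is that between unlike libraries of a day. Nothing in the labels ties the libraries to separate cultures, and p-values measure only the spread between these libraries. The treatments and introduced genes named in the titles also differed between the days, as may have the experiment. These cannot be told apart from day.

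Fibroblasts are mesenchymal cells: they lie singly in a collagen matrix and use N-cadherin and related adhesion molecules. When Oct4, Sox2, Klf4 and Myc are introduced, such cells are known to lose part of this program early and to gain epithelial adhesion genes, in what is called a mesenchymal-to-epithelial transition, before the genes of the pluripotent state come on. A shift of energy metabolism towards glycolysis is also known during reprogramming. In bulk RNA, more cells of a kind and more RNA per cell cannot be told apart.

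The libraries held between 2426015 and 3426702 expected counts, so 3 counts, the floor used for a gene at 0, equal 0.869 to 1.30 CPM (counts for each 1000000 reads of the scaled library). Expression in pairs of libraries of the same day had a Pearson's r across genes of 0.966 to 0.979, and pairs across days 0.917 to 0.942. The SD of the log2 ratio was 0.444 to 0.565 within a day and 0.758 to 0.911 between days. Ppif, which checks the CypD label, had 761 CPM in the CypD library, 44.2 in the Flag library and 29.2 to 34.2 at day 8, so the day-8 libraries did not have it above the Flag control. The paraquat library stood apart from the other day-8 libraries by a trend along transcript length. The log2 ratio of control to paraquat rose with length across genes (Spearman's rho 0.381, a description), and the paraquat-to-Flag ratio fell with it (rho −0.332). Median transcript length was 1951 bases in genes called higher at day 8, 2884 in genes called lower and 2441 in all genes tested. The part of length and of the paraquat library in each result was not tested beyond the values given beside it.

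Of 29267 genes, 13584 (46.4%) averaged 1 CPM or more over the libraries and were tested. At an adjusted p under 0.05 in edgeR's quasi-likelihood test, 2133 genes (15.7%) were higher at day 8 and 1928 (14.2%) were lower. The changes upward were larger: 994 of the genes called higher and 300 of those called lower differed at least 2-fold, and 384 and 49 at least 4-fold. With 3 day-8 and 2 day-4 libraries in the mean, a gene absent at day 4 passed the filter at a lower level than one absent at day 8. The part of this in the difference was not tested. The median log2 fold change of all tested genes was 0.01. All 3 day-8 libraries lay above both day-4 libraries in 3865 genes (28.5%) and below both in 3823 (28.1%). Among called genes, 2126 of the 2133 and 1926 of the 1928 were separated in this way. Call and separation came from the same counts, so this is not a separate check. For 1 gene alone, the 10 possible arrangements of 3 and 2 libraries cannot give a two-sided exact permutation p under 0.2, so calls rest on the spread shared across genes.

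The number of calls depended on the day-4 libraries. Without the Flag library 1029 genes were called higher and 672 lower, and without the CypD library 920 and 765. On the deposited TPM (a level scaled by transcript length) 1107 genes were called higher and 1134 lower, and the median of all genes moved to −0.12. Folds on that scale are of TPM plus a pseudocount, which understates the change of genes with low values.

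**Figure D1:**
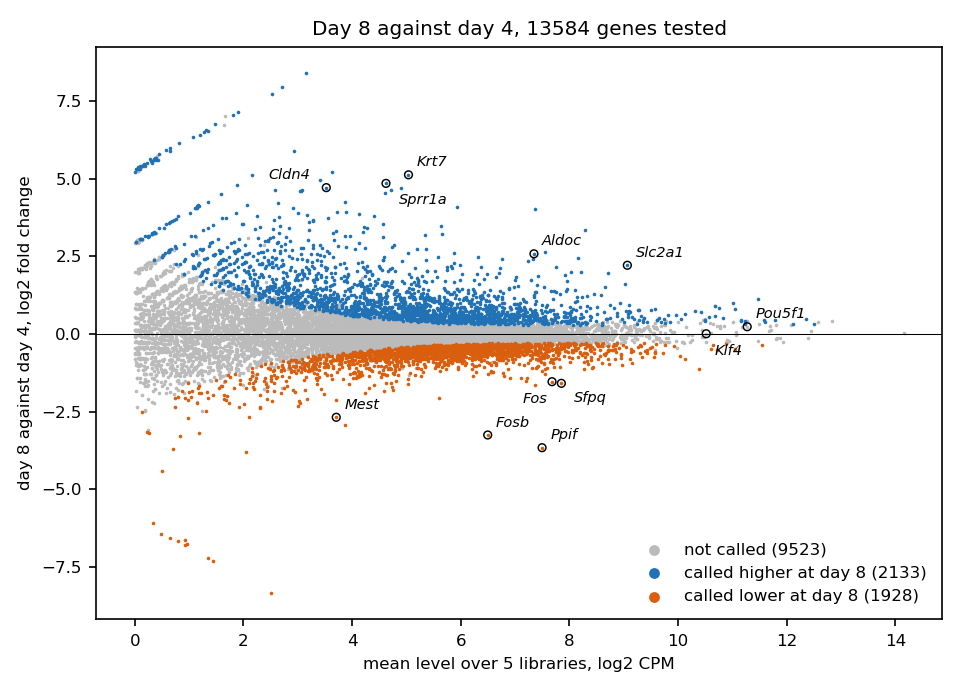
Log2 fold change of day 8 against day 4 (vertical axis) against the mean level over 5 libraries in log2 CPM (horizontal axis), 1 point per gene tested, with 2133 genes called higher in blue, 1928 called lower in orange and the rest in grey. Krt7 (5.13), Cldn4 (4.72) and Sprr1a (4.85) lie high at modest levels, Slc2a1 (2.21) lies high at a high level, and Fosb (−3.25) and Ppif (−3.66) lie low.

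Krt7, Cldn4, Slc2a1 and Fosb were named with the comparison, and other kinds of change are given further below. Krt7 (ENSMUSG00000023039; mm10 chromosome 15, 101411043 to 101430313, plus strand) encodes a keratin of simple epithelia. It had 53.5 CPM in the day-8 control, 54.7 in mastoparan and 53.3 in paraquat, against 0 in Flag and 2.61 in CypD. The day-8 libraries lay close together in this gene, far above both day-4 libraries. The fold was 35.8 (95% interval 18.7 to 78.9, counting error only) and the log2 fold change 5.13 (SE 0.36, adjusted p 2.9e-06). It was 10.18 without the CypD library and 4.35 without the Flag library, since so few counts stood at day 4. Cldn4 (chromosome 5, 134945119 to 134946934, minus strand), a claudin of tight junctions, had 16.9, 18.6 and 20.8 CPM at day 8, against 0.395 in Flag and 0.869 in CypD. Again the groups did not overlap. Its fold was 27.8 (10.6 to 103) and its log2 fold change 4.72 (SE 0.40, adjusted p 9.2e-06), or 5.41 without the CypD library.

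Slc2a1 (chromosome 4, 119108711 to 119137983, plus strand) encodes GLUT1, the main glucose transporter of dividing cells. Its level was 832 CPM in the control, 831 in mastoparan and 680 in paraquat, against 162 in Flag and 174 in CypD. The paraquat library was the lowest of day 8 and was still far above day 4. Slc2a1 was 4.67-fold higher at day 8 (4.37 to 4.99), a log2 fold change of 2.21 (SE 0.13, adjusted p 4.9e-07). Fosb (chromosome 7, 19302696 to 19310051, minus strand), a subunit of the AP-1 transcription factor that is induced within minutes of a growth signal, went the other way. It had 24.6, 17.9 and 18.2 CPM at day 8, against 190 in Flag and 200 in CypD. It was 9.55 times lower at day 8, a log2 fold change of −3.25 (SE 0.14, adjusted p 1.2e-07), and the groups did not overlap. Per length, which allows levels to be compared between genes, Slc2a1 had 313 to 468 TPM at day 8, Krt7 20.6 to 31.3, Cldn4 13.8 to 14.7 and Fosb 5.79 to 9.58. At day 4 they had 94.7 and 98.2, 0 and 1.89, 0.33 and 0.71, and 76.6 and 78.1 TPM in Flag and CypD.

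The sequences before the start of these genes are shown since the 4 genes were named with the comparison and moved in opposite directions. They come from RefSeq on GRCm38.p6, the assembly of mm10, are written 5′ to 3′ on the gene's strand, and end at the start that RefSeq gives (the Slc2a1 sequence ends 4 bases earlier). Capitals mark matches to the motifs searched. The Krt7 window is chr15:101412153-101412402, and other annotated Krt7 transcripts begin upstream of it. The Cldn4 window is chr5:134946935-134947184, that of Slc2a1 chr4:119108495-119108740 and that of Fosb chr7:19310046-19310295.
Krt7: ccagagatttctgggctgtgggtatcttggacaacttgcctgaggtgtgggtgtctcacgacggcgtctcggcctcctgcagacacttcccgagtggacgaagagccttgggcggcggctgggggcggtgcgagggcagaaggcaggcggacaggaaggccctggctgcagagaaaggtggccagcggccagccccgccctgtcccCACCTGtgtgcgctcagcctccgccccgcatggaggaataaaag
Cldn4: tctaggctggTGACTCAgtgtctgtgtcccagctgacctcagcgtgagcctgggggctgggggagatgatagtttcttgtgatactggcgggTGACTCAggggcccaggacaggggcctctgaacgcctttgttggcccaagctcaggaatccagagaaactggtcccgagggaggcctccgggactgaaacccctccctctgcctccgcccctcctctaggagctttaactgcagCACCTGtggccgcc
Slc2a1: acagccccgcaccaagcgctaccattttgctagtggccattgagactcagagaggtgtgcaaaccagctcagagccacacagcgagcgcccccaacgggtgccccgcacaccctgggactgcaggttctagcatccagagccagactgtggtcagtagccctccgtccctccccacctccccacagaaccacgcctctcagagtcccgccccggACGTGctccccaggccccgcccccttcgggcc
Fosb: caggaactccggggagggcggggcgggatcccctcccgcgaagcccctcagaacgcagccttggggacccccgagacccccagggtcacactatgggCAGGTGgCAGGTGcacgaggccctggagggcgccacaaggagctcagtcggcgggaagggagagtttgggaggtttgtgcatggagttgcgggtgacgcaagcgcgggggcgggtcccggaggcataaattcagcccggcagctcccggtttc
The motifs were searched on both strands in the 250 bases before the start: TGANTCA (the AP-1 site), TGACGTCA (the cyclic AMP response element), AACCNGTT (the grainyhead site), CAGGTG (the E2 box bound by Snail and Zeb repressors of epithelial genes), GGGNGTGG (a KLF site), ACGTG (the core of the hypoxia response element) and TATAAA (the TATA box). Krt7 had an E2 box 44 bases before the start. Cldn4 had an E2 box at 14 bases and AP-1 sites at 158 and 240 bases. Slc2a1 had ACGTG at 36 bases, and Fosb had E2 boxes at 146 and 153 bases.

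An E2 box stood in 26.0% of the promoters of genes called higher by at least 2-fold (191 of the 734 with a promoter in the table) and in 10.6% of those called lower by at least 2-fold (23 of 217). It stood in 15% of the promoters of all genes tested and in 17.1% of all 27025 promoters. The AP-1 site stood in 7.08% of promoters of the genes higher by 2-fold or more, in 1.84% of those lower, in 4.15% of those tested and in 6.87% of all promoters. For ACGTG these shares were 18.7%, 17.5%, 21.8% and 16.6%, and for the grainyhead site 1.77%, 1.84%, 1.57% and 1.71%. A match is a run of letters and was not tested as a binding site.

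The largest increases among called genes averaging 10 CPM or more, with under 20% of shared sequence, included Krt7, Cldn4, Sprr1a (a precursor of the cornified envelope), S100a14 (an S100 calcium-binding protein of epithelia), Pkp3 (a plakophilin of desmosomes) and Col17a1 (the collagen of hemidesmosomes). Sprr1a had 38.3, 40.4 and 41.6 CPM in control, mastoparan and paraquat, against 2.37 in Flag and 0.579 in CypD (log2 fold change 4.85, SE 0.32). S100a14 had 49.9, 42.8 and 53.3 CPM at day 8, against 1.97 and 1.74 (4.69, SE 0.26). In both genes every day-8 library was many times above every day-4 library, though the naming rule took only genes whose days did not overlap. Pkp3 rose by a log2 fold change of 4.26 and Col17a1 by 3.88. These values moved with single day-4 libraries, as few counts stood there: without Flag and without CypD they were 6.01 and 4.05 for Sprr1a, and 5.23 and 3.53 for Pkp3. For Col17a1 the value was 4.53 without Flag.

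Of 32 genes of epithelial junctions and polarity, 31 were tested, and 25 of these were higher at day 8 and 1 lower, with a median log2 fold change of 1.88. That median was 1.24 with a minimum of 5 CPM, 1.32 with a prior count of 2 and 1.00 on TPM. It was 1.39 without Flag and 1.58 without CypD, and fewer members were called higher in each. The genes are those that seal and polarize an epithelial sheet. A member with almost no reads at day 4 passed the level for testing only through day 8 and had to differ, here and in the other epithelial lists, so these counts are a description. Cldn7 had 7.13, 5.26 and 16.9 CPM at day 8, against 0 and 0.579 at day 4 (fold 27.6, 7.38 to 232). Epcam, an epithelial adhesion molecule, had 63.6, 59.0 and 56.3 CPM, against 17.4 and 12.2 (log2 fold change 2.04, SE 0.17). Cdh1, E-cadherin, the classical cadherin of epithelia, had 25.6, 24.2 and 22.5 CPM, against 13.4 and 9.85 (1.08, SE 0.21, adjusted p 0.0024). Crb3, a polarity protein, and Dsg2, a desmosomal cadherin, had 26.4-fold and 28.3-fold higher levels on few day-4 counts (95% intervals 8.80 to 130 and 4.79 to 1147). Without Flag and without CypD the log2 fold change was 3.93 and 7.67 for Cldn7, and 6.82 and 3.45 for Dsg2. The gene called lower was Cxadr, a receptor of tight junctions, and its call was lost without mastoparan, without Flag and without CypD. On TPM 15 members were called higher, and the Dsg2 call was lost (0.90).

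Most measured keratins, the intermediate filaments of epithelia, rose. All 18 listed were in the files and 15 were tested, 13 of them higher and 0 lower, with a median log2 fold change of 2.34. Krt8, of simple epithelia, had 309, 305 and 366 CPM at day 8, against 128 and 121 (1.39, SE 0.12), and Krt19 had 203, 217 and 243, against 44.2 and 43.1 (2.34, SE 0.13). The keratins of basal epidermis were present too: Krt14 rose by 2.21 and Krt5 by 3.53 from a level near the floor (6.49, 7.02 and 5.20 CPM, against 0.789 and 0.290). Krt6a, of activated epidermis, had 92.1, 107 and 94.0 CPM, against 5.13 and 6.08 (4.10), though 50% of its sequence windows are shared with other genes, as for Krt6b, so reads may have been split between them. Per length, Krt8 (241 to 253 TPM) and Krt19 (225 to 249 TPM) were the highest of the keratins named here at day 8, and Krt8 led at day 4 with 109 and 99.2 TPM. Without Flag and without CypD the log2 fold change was 4.25 and 2.92 for Krt5, and 3.05 and 8.31 for Krt6b (main value 3.82).

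Cornified-envelope genes, which build the outer layer of the epidermis, had 13 of 17 tested members higher and 1 lower (27 listed, median 2.04, or 1.40 on TPM). Besides Sprr1a and S100a14, Lypd3 rose, from 0.789 and 0.290 CPM at day 4 to 11, 10.9 and 8.23 (fold 20.3, 6.73 to 101). Its log2 fold change of 4.22 was 4.94 without Flag and 3.61 without CypD. The gene called lower was Il1rn, the secreted antagonist of interleukin 1. Sprr2a1 stood at 15.9 CPM in the control and at 0 in the other 4 libraries, was not called, and shares 96% of its windows with other genes. Of 21 epithelial transcription and splicing regulators 14 were tested, 10 were higher and 0 lower, with a median of 1.43. Esrp1, a splicing regulator of epithelia, had 14.6, 11.9 and 13.4 CPM at day 8, against 0.395 and 0.579 (fold 26.6, 8.88 to 131). Barx2, a homeobox factor, rose by 3.66 and Rab25, a GTPase of apical recycling, by 3.08 (4.07 without CypD). Prom2, a membrane protein of epithelial protrusions, was at 0 in both day-4 libraries and at 7.46, 4.21 and 6.93 CPM at day 8, at least 5.24-fold higher than the floor of 3 counts per library. Grhl2, Ovol2, Klf5, Trp63, Gata3 and Elf5 were under the level for testing.

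**Figure D2:**
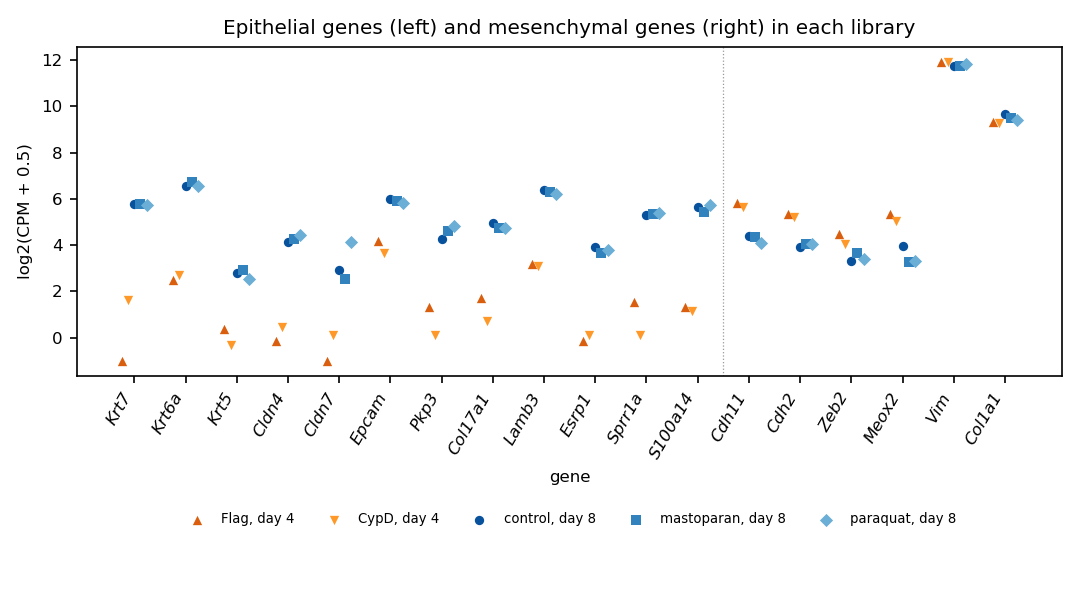
Level of 12 epithelial genes (left of the dotted line) and 6 mesenchymal genes (right) in each library, as log2(CPM + 0.5), with 1 point per library, day 4 in orange and day 8 in blue. In the 12 epithelial genes all day-8 points lie above the day-4 points, in Cdh11, Cdh2, Zeb2, Meox2 and Vim they lie below, and in Col1a1 they lie above. Neither Vim nor Col1a1 was called.

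Mesenchymal transcription factors and cadherins went down in part. Of 25 listed, 23 were tested, 0 were called higher and 8 lower, with a median log2 fold change of −0.45. Cdh11, a cadherin of mesenchyme, had 20.4, 20 and 16.5 CPM at day 8, against 56.0 and 49.5 (−1.46, SE 0.15). Cdh2, N-cadherin, had 14.6, 16.1 and 16 CPM, against 40.6 and 36.8 (−1.31, SE 0.16). In both, day 8 lay wholly below day 4. Zeb2, a repressor of E-cadherin, had 9.41, 11.9 and 9.96 CPM, against 21.7 and 15.9 (−0.83, adjusted p 0.019). Its call was lost without the control, without Flag, with DESeq2 and on TPM. Twist2 fell by 1.12 on the log2 scale, a call lost without Flag, and shares 46% of its windows. Snai1, which encodes a further E-cadherin repressor, had 21.1, 12.3 and 16.9 CPM at day 8, against 11.8 and 11, and was not called. The list had 5 lower calls without the control and 4 without Flag.

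Fibroblast surface and matrix genes did not go down as a group. Of 35 listed 34 were tested, with 12 higher, 5 lower and a median of 0.19. The lower share of 14.7% was near the 14.2% over all genes, and the higher share was 35.3%, against 15.7%. Vim, the main intermediate filament of mesenchymal cells, had 3406, 3456 and 3587 CPM at day 8, against 3818 and 3864 (−0.14, not called). Col1a1, the chain of type I collagen, had 803, 718 and 685 CPM, against 642 and 611 (0.23, not called). Among the called members Ogn, a small proteoglycan, rose by 2.52 and Serpinf1, a secreted serpin, by 1.04, while Dcn (decorin) fell by 1.25 and Fbln5, an elastic-fibre protein, by 0.96. Dcn had 24.0, 26.7 and 13.0 CPM at day 8, against 48.9 and 54.2. Without Flag 6 members were called higher. Smooth-muscle contractile genes and Srf targets, 22 of 23 tested, had 5 higher and 3 lower (median −0.14): Actg2, a smooth-muscle actin, rose by 1.26 and Tpm2, a tropomyosin, by 1.19. The lower share of this list, 13.6%, was near that over all genes, and its higher share was 22.7%, against 15.7%. Lower calls in it were 5 without the control and 7 without paraquat.

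The TGF-beta and BMP pathways, secreted signals that favour the mesenchymal and the epithelial state respectively in early reprogramming, had members called in each direction. The lower share of tested members, 18.2% and 15%, was near the 14.2% over all genes. The higher share was 36.4% and 35%, against 15.7% over all genes. Of 23 TGF-beta genes 22 were tested, with 8 higher and 4 lower (median 0.15). The ligand Tgfb1 rose by 1.17 (22.1, 21.4 and 28.2 CPM, against 10.3 and 10.7) and the feedback gene Pmepa1 by 0.86, a call lost without Flag. The receptor gene Tgfbr1 and the signal transducers Smad2 and Smad4 were called lower (−0.67, −0.55 and −0.51), as was Fst. Of 22 BMP genes 20 were tested, with 7 higher and 3 lower (median 0.15). The ligand Bmp2 rose by 1.73 (lost without CypD), and the targets Id1 and Id3 had log2 fold changes of 1.06 and 0.71. Among the members called lower, Grem1 (−1.11) encodes a secreted BMP antagonist and Fst, which is on both lists (13.0, 12.3 and 10.4 CPM, against 39.5 and 45.5, −1.83), a secreted antagonist of activin. Chrd, which also encodes a secreted BMP antagonist, was called higher (0.76). Calls without Flag were 2 and 2 for TGF-beta and 4 higher for BMP, and without CypD 4 and 1, and 3.

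None of the reprogramming factors was called. Introduced and endogenous copies cannot be told apart in these counts. Pou5f1 (Oct4) had 3072, 2946 and 1868 CPM at day 8, against 2390 in Flag and 2082 in CypD, a log2 fold change of 0.23. Sox2 had 944, 908 and 526 CPM, against 1058 and 834 (−0.25), Klf4 had 1901, 1641 and 860, against 1646 and 1276 (0.01), and Myc had 1443, 1373 and 827, against 1359 and 1117 (−0.03). In all 4 the paraquat library was the lowest of the 5. Without it, Pou5f1 (0.43), Klf4 (0.28) and Myc (0.19, a change of sign) were called higher.

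Of 38 genes of early pluripotency 22 were tested, 12 were higher and 2 lower, with a median of 0.75. Members with almost no reads at day 4, such as Sall4 and Zfp42, passed the level for testing only through day 8. They had to differ, so these counts are a description. The summed level of the list was 1033, 1025 and 994 CPM at day 8 and 1050 and 1089 CPM at day 4. Sall4, a zinc-finger factor of the pluripotency network, had 7.78, 7.72 and 6.5 CPM at day 8, against 0 and 0.290 (fold 44.3, 7.66 to 1779). Lefty2, a Nodal antagonist, had 3.57, 5.26 and 3.47 CPM, against 0.789 and 0.579 (fold 6.18, 2.2 to 24.0), and Zfp42 (Rex1) had 1.30, 2.46 and 1.30, against 0 and 0.290. Zfp42 had 4, 7 and 3 counts at day 8, against 0 and 1, and its call was lost without the control, Flag or CypD; that of Lefty2 was lost without Flag or CypD. Nanog, a core pluripotency factor, had 6.81, 4.91 and 4.33 CPM, against 4.74 and 3.19, with overlapping groups (0.48, not called). Epcam and Cdh1, already described, are also on this list, and Alpl, alkaline phosphatase, rose by 0.83. Dnmt3b, a de novo DNA methyltransferase, fell by 1.41, a call lost without Flag. Higher calls were 6 without mastoparan, 4 without Flag and 4 without CypD, and 5 on TPM, and the log2 fold change of Sall4 was 7.32 without CypD and 4.48 without Flag.

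Immediate-early genes, whose products carry growth-factor and stress signals to the nucleus, fell more often than they rose: of 29 listed 27 were tested, with 5 higher and 11 lower (median −0.43). The higher share of 18.5% was near the 15.7% over all genes, and the lower share was 40.7%, against 14.2%. The fall in Fosb was shared by Fos, with 132, 114 and 101 CPM at day 8, against 352 and 324 (−1.54, SE 0.12), and by Atf3, with 5.19, 3.51 and 2.60, against 17.8 and 15.9 (−2.10, SE 0.29). Jun was at 80.4, 70.2 and 58.5 CPM, against 172 and 164 (−1.26), and Egr1 had a log2 fold change of −0.96. In each of these genes the day-8 control was the highest of the day-8 libraries, and still below day 4. Egr2 fell by 1.39, a call lost without Flag or CypD. Other AP-1 genes did not follow: Junb (−0.05) and Jund (0.02) were not called, and Fosl2 was called higher (0.98). Of 20 genes in the feedback of the MAP kinase pathway 18 were tested, with 6 higher and 1 lower (median 0.17). The phosphatase gene Dusp5 (43.5, 41.1 and 44.6 CPM, against 21.3 and 17.1) and Spred3, an inhibitor of Ras signalling, each rose by 1.18, and Phlda1 by 1.16, with 29% of its windows shared. Dusp1, an immediate-early phosphatase of the same pathway, fell by 1.34.

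**Figure D3:**
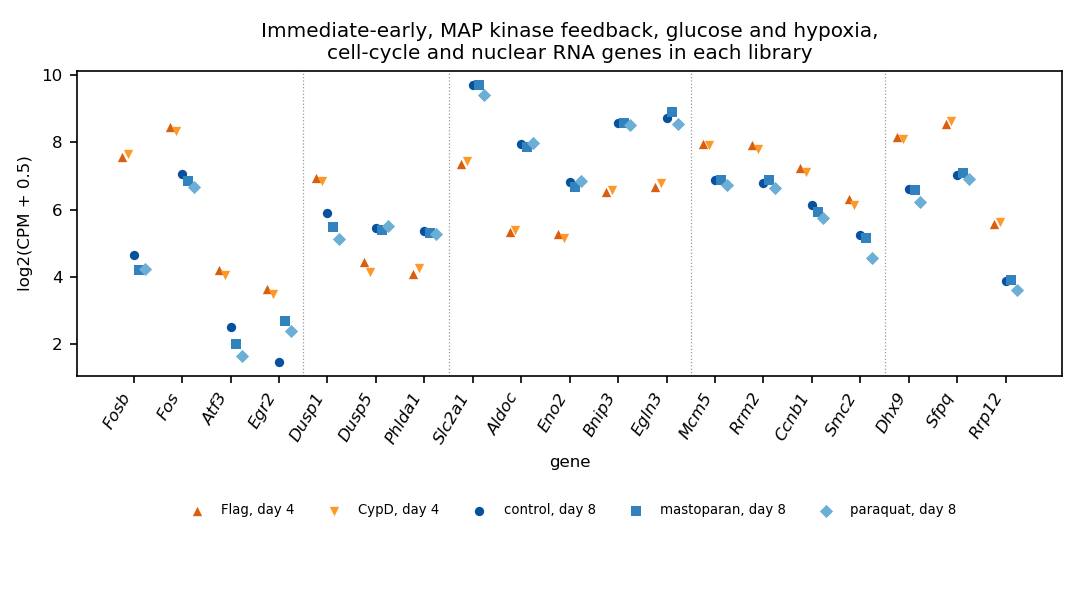
Level in each library, as log2(CPM + 0.5), of immediate-early genes, MAP kinase feedback genes, glucose and hypoxia genes, cell-cycle genes and nuclear RNA genes, from left to right between dotted lines, 1 point per library, day 4 in orange and day 8 in blue. Fosb, Fos, Atf3, Egr2 and Dusp1 lie lower at day 8, Dusp5 to Egln3 higher, and Mcm5 to Rrp12 lower, with no overlap between days in any of them.

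The rise in Slc2a1 came with higher levels of most genes of glucose uptake and glycolysis. All 30 listed were tested, 20 were higher and 2 lower, and the median log2 fold change was 0.67. Higher calls were 15 without mastoparan and 14 on TPM. They were also fewer without Flag and without CypD, with medians of 0.63 and 0.65. Aldoc, aldolase C, had 249, 233 and 251 CPM at day 8, against 39.5 and 41.7 (2.58, SE 0.12, adjusted p 1.6e-07). Eno2, an enolase, rose by 1.60 and Slc2a3, the glucose transporter GLUT3, by 1.43. The abundant members moved less: Aldoa had 2538, 2494 and 2685 CPM, against 1268 and 1288, while Gapdh had 6026, 6228 and 6621, against 4971 and 5015, and log2 fold changes of 1.01 and 0.33. The members called lower were G6pdx and Pgd, which encode enzymes of the pentose phosphate branch rather than of glycolysis (−0.48 and −0.45). Without Flag neither was called, and without CypD 1 was.

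Genes of the hypoxia response outside glycolysis rose as well: 23 of 23 were tested, with 16 higher and 1 lower (median 0.97). Without mastoparan 14 were called higher, and on TPM 12. Fewer were also called without Flag and without CypD, with medians of 0.98 and 0.82. Egln3, an oxygen-sensing prolyl hydroxylase, had 426, 480 and 373 CPM at day 8, against 102 and 109 (2.01, SE 0.13). Bnip3, a mitophagy receptor, had 379, 377 and 363, against 91.9 and 96.1 (1.99, SE 0.11). For both genes the lowest day-8 library was far above the highest day-4 one. Ankrd37 rose by 2.16, and Car9, a carbonic anhydrase, by 2.90 on few counts (1.62, 3.51 and 3.47 CPM, against 0.789 and 0), a call lost without mastoparan (2.70) or CypD (1.78). Without Flag, with no counts left at day 4, its value was 6.06. Car9 passed the level for testing only through day 8 and had to differ. Vegfa, the endothelial growth factor, was called higher (1.19). Hif1a, the oxygen-regulated factor of this response, whose control is mainly of the protein, was the member called lower (−0.63).

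The respiratory chain did not mirror glycolysis. All 48 genes were tested, 0 were called higher and 3 lower, with a median of 0.07. These were Atp5b (−0.33) and Sdha (−0.36), each lost without mastoparan, Flag or CypD, and Ndufs1 (−0.54), lost without CypD. Lower calls were 10 without paraquat and 0 without CypD, and 12 with the length trend removed. Without the control 2 were called higher. The median of the list was highest in the paraquat library, and Atp5e, a small subunit of ATP synthase, had 234, 235 and 432 CPM at day 8, against 204 and 230. Among 30 genes of mitochondrial dynamics and the permeability transition, 29 were tested, with 4 higher and 5 lower (median −0.10). These shares, 13.8% and 17.2%, were near the 15.7% and 14.2% over all genes. Ucp2, an uncoupling protein, had 243, 231 and 282 CPM, against 84.1 and 90.3 (1.53, SE 0.12). Letm1, of mitochondrial ion exchange, fell by 0.67 (lost without Flag). Ppif was called lower (−3.66), but this rests on the CypD library: without it the log2 fold change was −0.46 and not called. Lower calls in this list were 10 without paraquat, 2 without Flag and 3 without CypD, and higher calls 1 and 2 without Flag and CypD.

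Most genes of the cell cycle were lower at day 8. Of 40 genes of S phase and DNA replication, all tested, 0 were higher and 28 lower (median −0.53). Of 34 genes of mitosis, all tested, 0 were higher and 32 lower (median −0.63). Mcm5, a subunit of the replicative helicase, had 117, 118 and 106 CPM at day 8, against 247 and 241 (−1.10, SE 0.10). Ccnb1, cyclin B1, had 69.4, 60.7 and 53.7, against 149 and 140 (−1.23, SE 0.12). Neither gene had overlapping groups. Rrm2 (−1.10) and Tyms (−1.07), which make DNA precursors, Cdc6 (−1.05), the condensin gene Smc2 (−1.21) and the kinesins Kif20a (−0.93) and Kif23 (−0.92) were called lower too. Leaving out Flag left 18 and 18 lower calls in the S-phase and mitosis lists, and leaving out CypD 16 in the S-phase list. Of 27 p53 targets and cell-cycle inhibitors, all tested, 8 were higher and 6 lower (median 0.01). Gadd45b (1.46), Gadd45a (0.95, lost without Flag) and Cdkn2a, the Ink4a/Arf locus (0.93), rose, and Cdkn2c fell by 1.01. Trp53 itself was called lower (−0.63). This list had 3 higher and 2 lower calls without Flag, 4 and 3 without CypD, and 3 lower without mastoparan.

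Of 37 Nrf2 targets and oxidative-stress genes 36 were tested, with 11 higher and 5 lower (median 0.22). The lower share of 13.9% was near the 14.2% over all genes, and the higher share was 30.6%, against 15.7%. Gsta4, a glutathione transferase, had 476, 508 and 648 CPM at day 8, against 180 and 197 (1.52, SE 0.14), and Gpx2, a glutathione peroxidase, rose by 2.33. Gclc, for the first step of glutathione synthesis, and Txnrd1, thioredoxin reductase, were called lower (−1.06 and −1.01). Of 30 genes of the integrated stress response and serine synthesis 29 were tested, with 10 higher and 6 lower (median −0.01). Aldh1l2 (2.38), Trib3 (2.12, lost without CypD), Nupr1 (1.75) and the amino-acid transporter Slc7a3 (1.68) rose, while Atf4, the central factor of this response, and the serine-synthesis genes Phgdh and Psat1 were called lower (−0.35, −0.43 and −0.54). Slc7a11, the cystine transporter on both lists, rose by 1.21, a call lost without the control, Flag or CypD. The Nrf2 list had 5 higher calls without Flag, 4 without CypD and 8 lower calls without paraquat, and the second list 6 and 4 higher calls without Flag and CypD. Cholesterol-synthesis genes, 24 of 24 tested, had 6 higher and 0 lower (median 0.18), led by Fdft1 (0.79) and Msmo1 (0.70). That count was 3 without mastoparan, 2 without Flag and 2 without CypD.

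Among 35 interferon-stimulated and MHC class I genes 27 were tested, with 9 higher and 1 lower (median 0.48). Ifi27 had 41.8, 48.8 and 52.4 CPM at day 8, against 10.3 and 15.3 (1.85, SE 0.19). Psmb9, an immunoproteasome subunit, and Isg20, an antiviral exonuclease, had fold changes of 2.09 and 1.77 on the log2 scale, both lost without Flag or CypD. H2-K1, a class I heavy chain, was called higher (1.18), and B2m, the light chain, was the member called lower (−0.32, lost without the control, mastoparan, Flag or CypD). Higher calls were 4 without Flag and 5 without CypD. Of 34 chemokines and secreted inflammatory factors only 15 were tested, with 1 higher and 4 lower (median −0.22). Ptgs2, the inducible prostaglandin synthase, fell by 1.51, from 43.4 and 48.1 CPM to 17.8, 15.1 and 15.2. Cxcl1 (−1.83) was called on few counts and lost its call without the control, mastoparan, Flag or CypD. Saa3, serum amyloid, rose by 1.94, lost without Flag or CypD. Lower calls in the list were 2 without mastoparan and 1 without Flag or CypD.

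Imprinted genes, expressed from 1 parental copy and high in embryonic mesenchyme, were mostly lower where called: of 25 listed 22 were tested, with 2 higher and 9 lower (median −0.13). Mest had 3.24, 7.37 and 1.30 CPM at day 8, against 27.6 and 25.8 (−2.68, SE 0.35), and shares 21% of its windows. It was −3.46 without mastoparan, the day-8 library with the highest level. Plagl1 fell by 1.04, and Nnat by 1.05 (lost without mastoparan, Flag or CypD). Higher and lower calls were 1 and 5 without Flag, higher calls 1 without mastoparan and 0 without CypD. Of 39 Hox genes, which hold the positional identity of fibroblasts, 33 were tested, 0 were higher and 1 was lower (median 0.01). This was Hoxd13 (−0.59), lost without mastoparan, Flag or CypD. Of 36 chromatin and DNA methylation enzymes 35 were tested, with 6 higher and 11 lower (median −0.25). The higher share of 17.1% was near the 15.7% over all genes, and the lower share was 31.4%, against 14.2%. The Polycomb genes Ezh1 (92.8, 107 and 92.3 CPM, against 39.1 and 42.9, 1.25) and Cbx7 (0.97) rose. Their counterparts Ezh2 (−0.74) and Cbx2 (−0.56) were called lower, and Dnmt1, the maintenance methyltransferase, fell by 0.79. Lower calls were 2 without Flag and 3 without CypD, and higher calls 2 without CypD. Of 40 cytosolic ribosomal protein genes 4 were in the files, all tested, and Rplp2 was called higher (0.81). Its level was highest in paraquat, and the call was lost without Flag or CypD.

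Other genes that the naming rule took for the size of their change lay outside these lists. Ush1c, a scaffold of microvilli, had 23.0, 19.3 and 18.2 CPM at day 8, against 0.395 and 0.579 (fold 40.7, 13.7 to 199). Srgn, a proteoglycan of secretory granules, had 47.0, 38.6 and 42.5, against 0.789 and 2.32 (log2 fold change 4.65, or 5.68 without CypD). Grb7, a receptor adaptor, rose by 3.93 and Ly6g6c, a surface protein of the Ly6 family, by 3.92 (4.64 without CypD).

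Downward, the most changed genes at this level with under 20% of shared sequence included, after Fosb and Ppif, Akr1c18, a steroid dehydrogenase (17.2, 21.1 and 26.4 CPM at day 8, against 81.3 and 95.3, −2.06), and Nrcam, a neural adhesion molecule (2.92, 4.56 and 8.66, against 19.7 and 19.98, −1.94). Pcdh10, a protocadherin (−1.89), Capn15, of the calpain family (−1.78), Nr2f1, an orphan nuclear receptor (−1.74), Slit2, a guidance ligand (−1.71), and Meox2, a mesodermal homeobox factor (14.9, 9.12 and 9.53 CPM, against 39.5 and 32.4, −1.65), were also called lower. So were Rrp12, of ribosome assembly (14.3, 14.4 and 11.7, against 46.6 and 48.6, −1.81), and Dhx9, an RNA helicase (96.3, 94.7 and 74.5, against 285 and 276, −1.66). The days did not overlap in these genes, as the rule for naming them required.

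**Figure D4:**
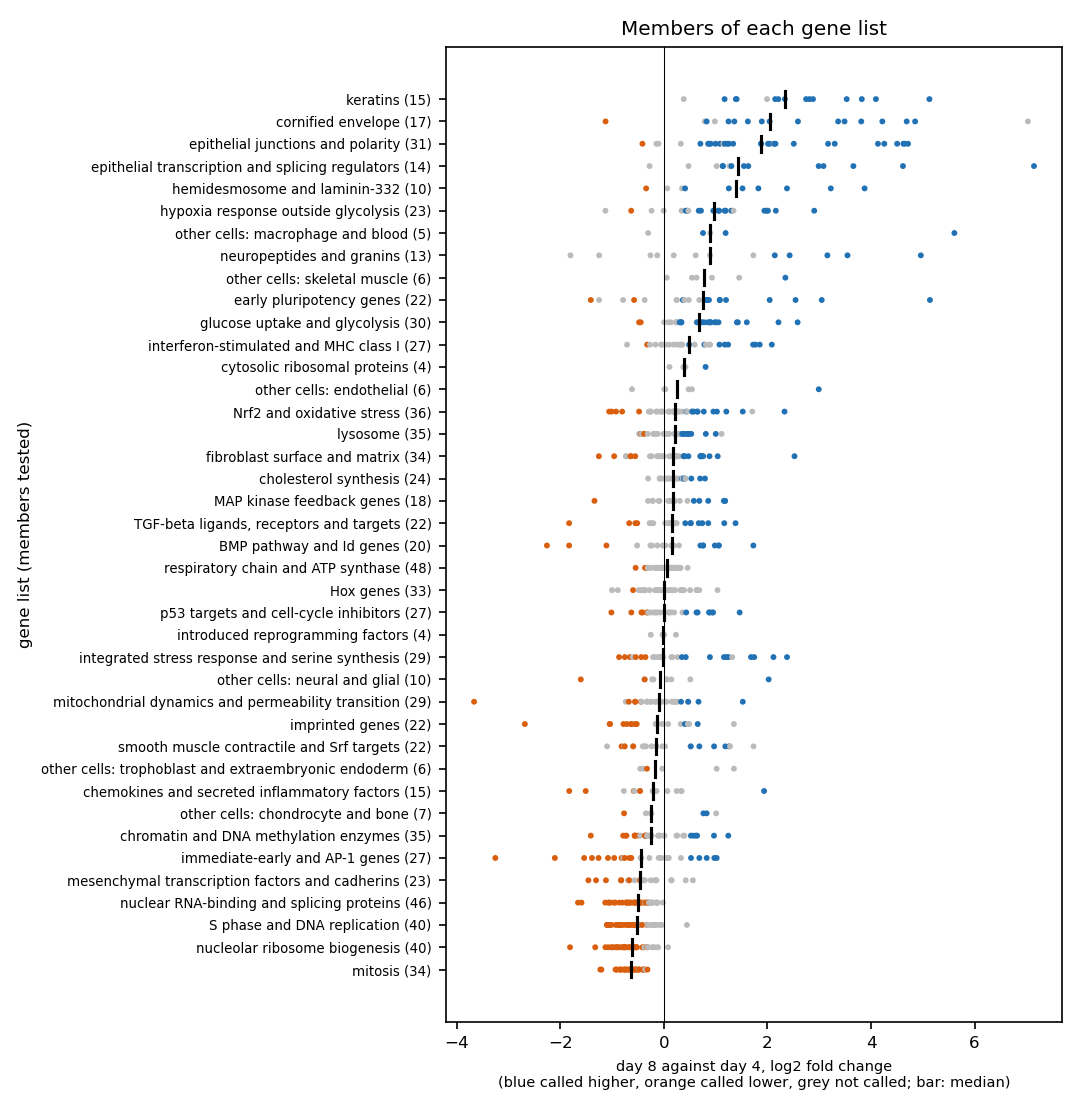
Log2 fold change of day 8 against day 4 for every tested member of each gene list, sorted by the median (black bar), with members called higher in blue, called lower in orange and not called in grey. Keratins (median 2.34), cornified-envelope genes (2.04) and epithelial junction genes (1.88) stand at the top, and mitosis (−0.63) at the bottom.

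Markers of cells that a fibroblast culture could also hold were mostly too low to test. For macrophages and blood, 5 of 17 markers were tested, and 3 were higher: Csf1r (0 in both day-4 libraries, at least 1.88-fold above the floor, lost without Flag or CypD), Cd68 (1.19, lost without Flag) and Laptm5 (0.76). Csf1r passed the level for testing only through day 8 and had to differ. The summed level of the macrophage and blood list was 67.7 to 73.3 CPM at day 8 and 37.1 to 41.7 at day 4. The defining markers Ptprc, Adgre1 and Tyrobp were under the level for testing, and 3 of the 17 were at 0 in all libraries. For skeletal muscle 6 of 16 were tested and 1, Tnni1, was higher (2.35), with sums of 55.5 to 64.1 and 16.8 to 20.9 CPM. For endothelium 6 of 14 were tested and 1, the tight-junction gene Cldn5, was higher (2.99, or 4.23 without CypD), with sums of 65.4 to 81.1 and 62.4 to 70.1 CPM. Among 10 of 18 tested neural and glial markers Mbp was higher (2.03), and Tubb3 (−1.60) and Nes (−0.37) were lower. Of 2 tested adipocyte markers (11 listed) none was called at an adjusted p under 0.05 in edgeR's test. In trophoblast and extraembryonic endoderm 6 of 18 were tested and 1, Lamb1, was lower (−0.32, lost without the control, mastoparan, Flag or CypD), and in cartilage and bone 7 of 15 with 2 higher (Alpl, and Spp1, lost without mastoparan, Flag or CypD) and 1 lower (Col2a1, −0.77). Over all genes 15.7% were called higher and 14.2% lower. The higher share of 16.7% in endothelium and in skeletal muscle was near this. So was the lower share of 16.7% in trophoblast and extraembryonic endoderm and of 14.3% in cartilage and bone. Neural and glial markers had 10% higher and 20% lower. The higher share was 28.6% in cartilage and bone and 60% for macrophages and blood. All these shares rest on few tested markers. The part of such cells in the results above was not tested.

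Each library also gave its own list medians. Set against the mean of the day-4 libraries, the median of the keratin list was 2.2 in the control, 2.30 in mastoparan and 2.47 in paraquat. For the mitosis list the medians were −0.61, −0.59 and −0.72, and for glycolysis 0.63, 0.70 and 0.75. The days were thus separate in every library for these lists. For the reprogramming factors they were 0.31, 0.17 and −0.66, and for the respiratory chain −0.10, −0.03 and 0.38, so that the paraquat library stood apart in both.

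**Figure D5:**
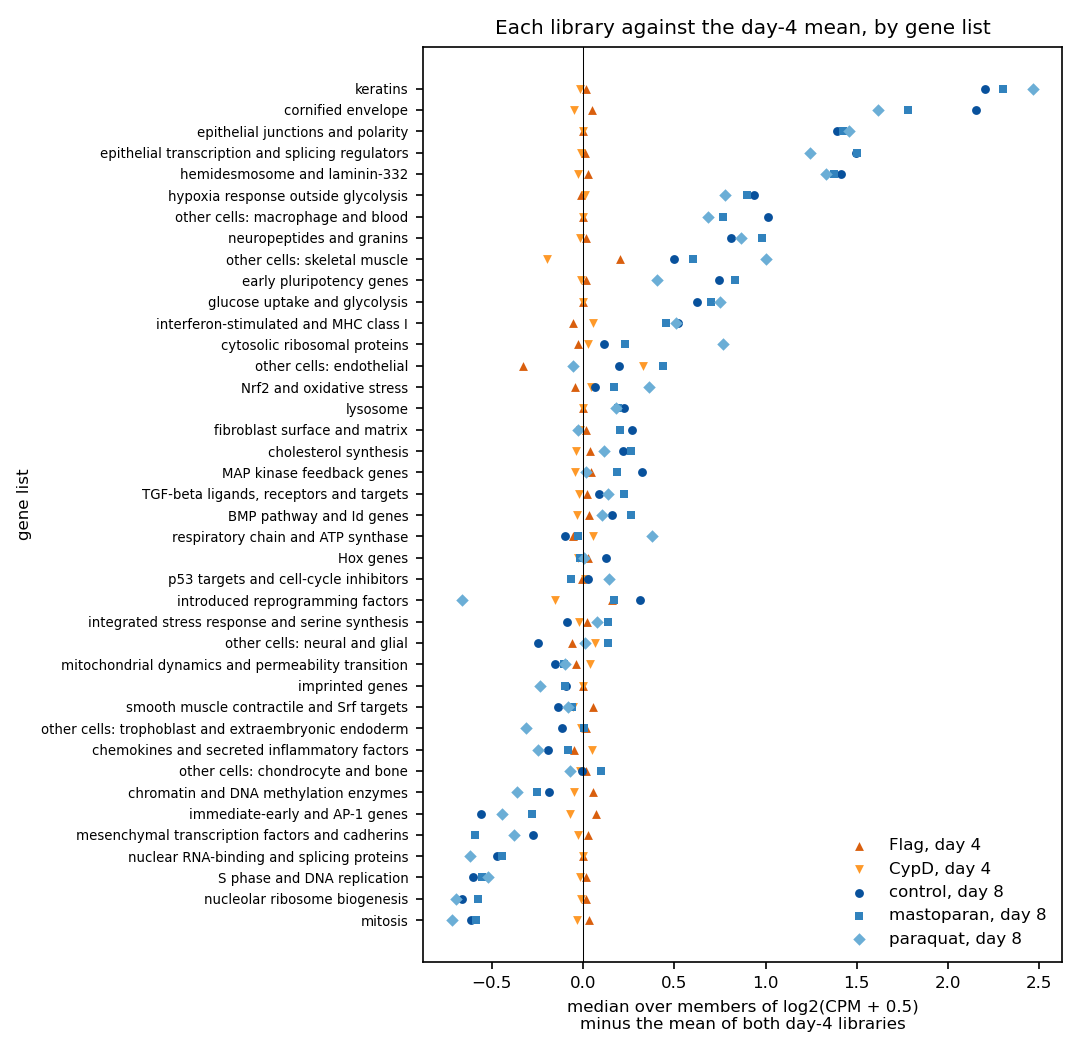
Median over the members of each gene list of log2(CPM + 0.5) minus the mean of both day-4 libraries (horizontal axis), 1 symbol per library, with day 4 in orange and day 8 in blue. In the keratin, junction and mitosis lists the 3 day-8 symbols lie together and apart from day 4, while in the reprogramming factors and the respiratory chain paraquat lies away from the control and mastoparan.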

How the data were processed

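Each of the 5 libraries had 1 file, and its group came from the labels. The submitters' processing notes name Bowtie2 2.2.5 and mm10, but no counting program or annotation. Per the file headers, the authors deposited an expected count and a TPM for each gene, and the deposited FPKM column was not used. Of 29267 gene IDs 28756 (98.3%) had a symbol in GENCODE M21. The library kit does not mark strand, so overlapping and antisense genes cannot be told apart.

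Expected counts were rounded to whole counts, scaled by TMM factors (0.951 to 1.02) and tested with edgeR 4.0.16 in R 4.3.3 (glmQLFit and glmQLFTest, residual df 3), day 8 against day 4, for genes averaging 1 CPM or more. P-values were adjusted by Benjamini-Hochberg over all genes tested, and a gene was called at an adjusted p under 0.05. All log2 fold changes and adjusted p-values come from this fit unless another is named. Each SE is the absolute log2 fold change divided by the square root of the F of that test. For genes with few counts on a day, such as Cldn4, Krt7 and Sprr1a, this SE can be smaller than counting error alone. Folds are ratios of scaled counts summed over each group, with exact 95% Clopper-Pearson intervals. The intervals cover counting error only and leave out the spread between libraries of a day. Amplified reads are not independent molecules, so the intervals may be too narrow even for counting error. Where both day-4 libraries were at 0, the fold is the mean day-8 CPM over the floor of 3 counts in the shallower day-4 library. Shared sequence is the percentage of a gene's 49-base windows found in another gene, from 82533 of the 84205 transcripts in the files.

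The members and lists were chosen with earlier results of these data known. Gene lists (36) are described by their counts and median, with no test. Named genes were Krt7, Cldn4, Slc2a1, Fosb, Ppif, Pou5f1, Sox2, Klf4 and Myc, then the 12 highest and 12 lowest called genes averaging 10 CPM or more, with days that do not overlap and under 20% of shared sequence. From each list, 4 members at most were added, those that changed most. Some genes that this rule takes are left out. Any other gene was named after its values were seen, to give the pathway's ligands, receptors, regulators or single calls. A further 5 lists, in the closing section, were also chosen then. Scaling, filters, DESeq2 1.42.0, limma 3.58.1 on log2(TPM + 1), the length trend, shared sequence and each library were varied, and leaving out paraquat and CypD together was added after seeing the data. Statistics and figures used Python 3.11.15, numpy 2.4.6, scipy 1.17.1, pandas 2.3.3 and matplotlib 3.10.9.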

Additional observations from a re-analysis of the deposited data

How the results depend on the processing

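Over 5 libraries 2133 genes were called higher and 1928 lower. DESeq2's test called 1292 and 991, and limma on the deposited TPM 1107 and 1134. Leaving out 1 library gave 920 to 2542 higher and 672 to 2470 lower. The fewest higher calls came without CypD and the fewest lower without Flag, fits in which the lone day-4 library is assumed to vary like the day-8 libraries, and the most came without paraquat. Without paraquat and CypD together 5849 genes had day 8 wholly above day 4, fewer libraries being easier to separate. The share of calls that were higher was 52.5%, 56.6% with DESeq2, 49.4% on TPM, 55.1% with upper-quartile factors and 60.5% without Flag. Between the day-8 control and Flag, 1388 genes stood past 2-fold upward and 541 downward, with no filter 2125 and 958 and with a minimum of 5 CPM 747 and 267, as more or fewer genes were counted. Among values of named genes, 1 reversed when libraries were left out (Myc, at −0.03 over 5 libraries and from −0.17 without the control to 0.19 without paraquat), 58 lost and 15 gained a call, and 858 did neither. Under the other settings 28 lost and 13 gained a call. List medians moved on the deposited TPM, where that of all genes was −0.12. The BMP list went from 0.15 to −0.04, TGF-beta from 0.15 to 0.03, Nrf2 from 0.22 to 0.03 and cholesterol synthesis from 0.18 to 0.02. Early pluripotency went from 0.75 to 0.34, keratins from 2.34 to 2.04 and mitosis from −0.63 to −0.76. The cartilage and bone list, with a median of −0.24, was at 0.36 without paraquat and CypD and at 0.28 in the control against Flag. The cause was not tested. No paired analysis was possible because each group has 1 library and the labels carry no replicate numbers. At this depth the value of a gene with 0 or 1 count in each day-4 library, such as Sall4, rests on single counts.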

Other observations

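The following lists were chosen after the values were seen, so their counts are a description and support nothing. Genes of nucleolar ribosome biogenesis, 40 of 40 tested, had 0 members higher and 31 lower at day 8, with a median log2 fold change of −0.61. Besides Rrp12, the assembly factor gene Heatr1 (−1.32), Bop1 (−1.13), of the large ribosomal subunit, and the RNA helicase gene Ddx21 (−1.07) were called lower, and Ncl, nucleolin, had −0.52. Nuclear RNA-binding and splicing proteins, 46 of 46 tested, had 0 higher and 33 lower (median −0.49), and 21 lower without Flag and 20 without CypD. Sfpq, a paraspeckle protein, had 129, 135 and 119 CPM at day 8 (control, then mastoparan, then paraquat), against 375 in Flag and 396 in CypD (−1.59, SE 0.10). Hnrnpm (−1.13) and Srsf2 (−1.07) were called lower with it. In these genes the days did not overlap.

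Hemidesmosome and laminin-332 genes, which anchor epithelia to the basement membrane, had 7 of 10 members higher and 1 lower (median 1.39). Lamb3 had 82.7, 78.2 and 74.1 CPM at day 8, against 8.68 and 8.11 (3.23, SE 0.16). Its partner chain Lama3 (1.83) and the integrin Itgb4 (1.26) were called higher as well. The lower member was the linker Plec (−0.34), a call lost without the control, mastoparan, Flag or CypD. Of 33 neuropeptide and granin genes 13 were tested, with 5 higher and 0 lower (median 0.89, or 2.43 with a minimum of 5 CPM). Trh, the precursor of thyrotropin-releasing hormone, had 159, 161 and 164 CPM at day 8, against 29.2 and 30.4 (2.43, SE 0.12). Npy had 12.6, 15.1 and 24.3 CPM, against 0.789 and 0.290 (fold 33.4, 11.2 to 164; log2 fold change 4.96, or 5.68 without Flag and 4.35 without CypD). Tac2 (3.55), Ucn3 (3.16) and Pcsk1n (2.14) were the other members called. Lysosomal genes, 35 of 35 tested, had 9 higher and 2 lower (median 0.21). These calls moved with the libraries: 16 and 4 without paraquat, 5 and 1 without mastoparan, 3 and 0 without Flag, and 2 and 0 without CypD.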
